A study of Saccharomyces cerevisiae with 15 samples.

Results

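Transcript signals of 44 genes of cell wall synthesis and wall mannoproteins were examined in a xylose-utilising strain of Saccharomyces cerevisiae. The genes were taken by symbol from the array annotation, with 1 probe set for each gene, the one with the highest mean signal. All 44 were on the array, among 5656 genes with a named probe set (WSC1 is annotated there as SLG1). DSE1 stayed at the floor of 16 signal units on every array and could not be tested, so 43 of the 44 genes entered the comparisons, among 4681 genes with a tested probe set. The rule goes by gene function and uses the signals only to pick the probe set.

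The 3 states of strain VTT-C-99318 were compared. Xylose-grown cells (Xyl72h) were harvested after 72 h in medium that had started with 50 g/L xylose, of which 32 g/L was left. Glucose derepressed cells (Glc24h) were harvested after 24 h on 50 g/L glucose, when no glucose was left and ethanol had accumulated, and glucose repressed cells (Glc5h) after 5 h, with 37 g/L glucose left. All states share the strain, a CEN.PK2-1D derivative with the genotype ura3::XYL1 XYL2 his3::XKS1 kanMX, and thus the Pichia stipitis genes XYL1 (xylose reductase, under the PGK1 promoter) and XYL2 (xylitol dehydrogenase, under a modified ADH1 promoter) at URA3 and an additional copy of XKS1 (xylulokinase) at HIS3. Cultures were aerobic bioreactor batches on synthetic complete medium. Each state has 3 samples, from the fermentations numbered 0, 1 and 2, and the sample of fermentation 2 was hybridised 3 times and counts as 1. The Glc24h and Glc5h samples of a number come from the same culture, whereas the xylose cultures are separate. Carbon source, culture age and growth rate go together in this design and cannot be told apart.

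The yeast wall is a network of beta-1,3-glucan chains to which beta-1,6-glucan, chitin and heavily mannosylated proteins are attached. Glucan is made by synthases in the plasma membrane and is lengthened, branched and crosslinked outside it by transglycosylases. Most wall mannoproteins enter through a remnant of a GPI (glycosylphosphatidylinositol) anchor that is joined to beta-1,6-glucan, while the PIR proteins (proteins with internal repeats) are bound directly to beta-1,3-glucan. Damage to the wall is sensed by plasma membrane sensors that feed the cell wall integrity pathway, a kinase cascade ending in the MAP kinase Slt2 and the transcription factor Rlm1. At the end of each division the septum is cut from the daughter side by glucanases and a chitinase.

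Signals are linear fluorescence intensities, scaled to the same 75th percentile on every array, and a level of one gene cannot be set against that of another. Each log2 difference is the mean log2 signal of 3 cultures minus that of the other 3, given with the SE of the fit, and p-values are from limma with Benjamini-Hochberg adjustment over 5877 tested probe sets. The states were told apart by genes known to be glucose repressed: FBP1, PCK1, ICL1, MLS1 and ADH2 were all lower in Xyl72h than in Glc24h cells and all higher in Glc24h than in Glc5h cells, at adjusted p-values under 0.05.

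The Glc24h sample of fermentation 1 stood apart for the wall genes. It was the lowest of the 3 Glc24h cultures for 37 of the 43 tested genes (86.0%), against 28.3% of all tested probe sets. Its signals lay a median of 0.93 log2 units under the mean of the other Glc24h cultures over the 43 genes, and 0 over all tested probe sets. The ratio of the 3' to the 5' control probe set of actin, a measure of RNA degradation or incomplete labelling, was 10.3 on its array, 2.18 to 3.01 on the other Glc24h arrays, and between 1.86 and 2.77 on the arrays of the other states. The same ratio for the TATA-binding protein was 3.24 there and ran from 2.71 to 4.13 over all arrays. Probe sets not chosen for a gene also stood out in this sample. The other probe set of ECM33 gave 20.7 in it and 559 and 299 in the Glc24h samples of fermentations 0 and 2, and a further probe set of FKS1 16.0 in it and 203 and 168 in those samples. The part of RNA quality in the results was not tested, and calls that rest on this sample are given with and without it. The SD between cultures over the wall genes (root mean square, log2 scale, n = 3) was 0.388 in Xyl72h, 0.662 in Glc24h and 0.491 in Glc5h cells, where all tested probe sets gave 0.347, 0.461 and 0.472.

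Between Xyl72h and Glc5h cells 9 of the 43 genes rose (background 11.7% of all tested probe sets) and 5 fell (background 14%). GSC2, SPI1, PST1, PIR3, YPS1, YPS3, MID2, SLT2 and RLM1 were higher and GAS3, UTR2, CHS2, SUN4 and DSE2 lower in the xylose-grown cells. Together they made up 32.6% of the 43 genes, against 25.7% of all tested probe sets. The median log2 difference over the 43 genes was -0.04, against -0.02 over all tested probe sets. In these bulk samples a lower signal from fewer cells of a kind and from less RNA per cell cannot be told apart. By role, the genes that rose were 1 of 2 for glucan synthase, 2 of 8 for GPI proteins and 1 of 4 for PIR proteins. The others that rose were 2 of 2 for yapsins and 3 of 5 for the integrity pathway. Those that fell were 2 of 5 for glucan remodelling, 1 of 3 for chitin synthases, 1 of 3 in the SUN family and 1 of 4 tested for daughter separation. Most tested genes of the roles with a fall were thus not called lower. The count of genes that fell was 3 without the Xyl72h sample of fermentation 0 or 2 or the Glc5h sample of fermentation 1.

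Between Xyl72h and Glc24h cells 5 of the 43 genes rose (background 3.37%) and 0 fell (background 2.26%). At an unadjusted p under 0.05 in the same limma fit 19 were higher and 1, CWP1, lower. Of all 5877 tested probe sets 657 were higher and 473 lower at that unadjusted threshold. CRH1, EXG1, PST1, MID2 and SLT2 were higher. Of the 43 genes 39 had a positive difference, and the median was 0.73 against 0.00 over all tested probe sets. In 29 of them the xylose sample was higher than the Glc24h sample of its own fermentation number in all 3 numbers, as in 25.7% of all probe sets. Without the Glc24h sample of fermentation 1, 33 of 43 differences were positive, the median was 0.45, and 3 genes were called (CRH1, SLT2 and BGL2). The count was also 3 without the Xyl72h sample of fermentation 2 or the Glc5h sample of fermentation 0, 2 without the Xyl72h sample of fermentation 0, and 1 without the Xyl72h sample of fermentation 1 or the Glc24h sample of fermentation 2. SLT2 was called in all 9 of these fits.

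Between Glc24h and Glc5h cells 5 of the 43 genes rose (background 14.4%) and 17 fell (background 19.1%). GSC2, SPI1, PST1, PIR3 and RLM1 were higher. The genes that fell were FKS1, GAS1, GAS3, CRH1, UTR2, BGL2, EXG1, SCW10, CHS2, CHS3, SUN4, SIM1, ECM33, CIS3, CTS1, DSE2 and EGT2. The median log2 difference was -0.71, against -0.03 over all tested probe sets. Without the Glc24h sample of fermentation 1 it was -0.40, and 11 genes fell: FKS1, CHS3, SIM1, ECM33, CTS1 and EGT2 then had adjusted p-values between 0.0503 and 0.132, and RLM1 was no longer called higher (0.0584). The count of genes that fell was 10 without the Glc5h sample of fermentation 1. The balance of all calls depends on the scaling of the arrays: for Glc24h minus Glc5h, 845 probe sets were called higher and 1124 lower as scaled here, 1022 and 840 with signals as deposited, and 1360 and 590 after scaling on reference genes. For Xyl72h against Glc24h cells the same counts were 198 and 133, 106 and 164, and 82 and 233, and for Xyl72h against Glc5h cells 686 and 822, 656 and 685, and 828 and 462. The reference genes were ACT1, TAF10, UBC6, TFC1 and ALG9. As scaled here all 5 had negative Glc24h minus Glc5h differences, with a median of -0.66. None was called, and 2 were lower at an unadjusted p under 0.05 in limma. For the wall genes the direction of the calls held, with 5 rising and 12 falling for Glc24h minus Glc5h with signals as deposited, 6 and 10 after scaling on reference genes, and, for Xyl72h minus Glc24h, 4 and 2 rising and 0 falling (1 lower at an unadjusted p under 0.05 in limma as scaled here).

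**Figure D1:**
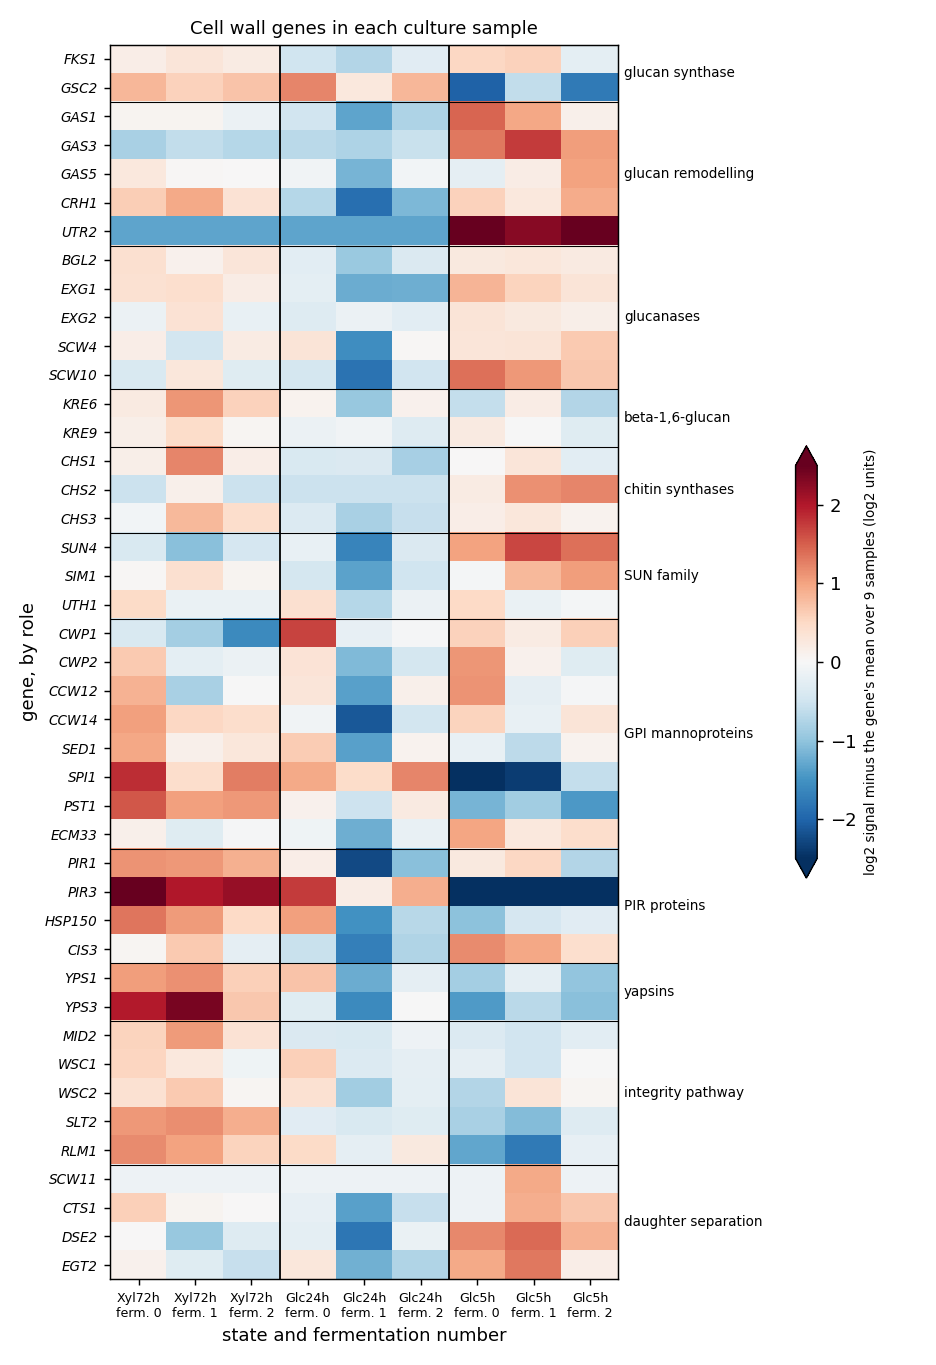
Heat map of the 43 tested genes (rows, by role) in the 9 culture samples (columns, by state and fermentation number, "ferm."). Colour gives the log2 signal minus the mean of the gene over the 9 samples, in log2 units, with values beyond 2.5 in either direction shown at the ends of the scale. UTR2, GAS3 and SUN4 stand out in Glc5h cells and PIR3, PST1 and SLT2 in Xyl72h cells, and the Glc24h sample of fermentation 1 is the lowest Glc24h column for 37 of the genes.

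Over the 3 states, 22 of the 43 genes differed by the F-test at an adjusted p under 0.05 (all tested probe sets 34.3%), and 20 at an unadjusted p under 0.01 (29.5%). Without the Glc5h sample of fermentation 1 the first count was 13. Of the 44 genes 26 were called in at least 1 comparison and 18 in none, DSE1 included. The same share over all tested probe sets was not computed, so these counts have no background. In the single comparisons 25.7% (Xyl72h minus Glc5h), 5.63% (Xyl72h minus Glc24h) and 33.5% (Glc24h minus Glc5h) of all tested probe sets were called. For the 43 genes these shares were 32.6%, 11.6% and 51.2%. PST1 was the only one of the 43 called in all 3 comparisons.

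**Figure D2:**
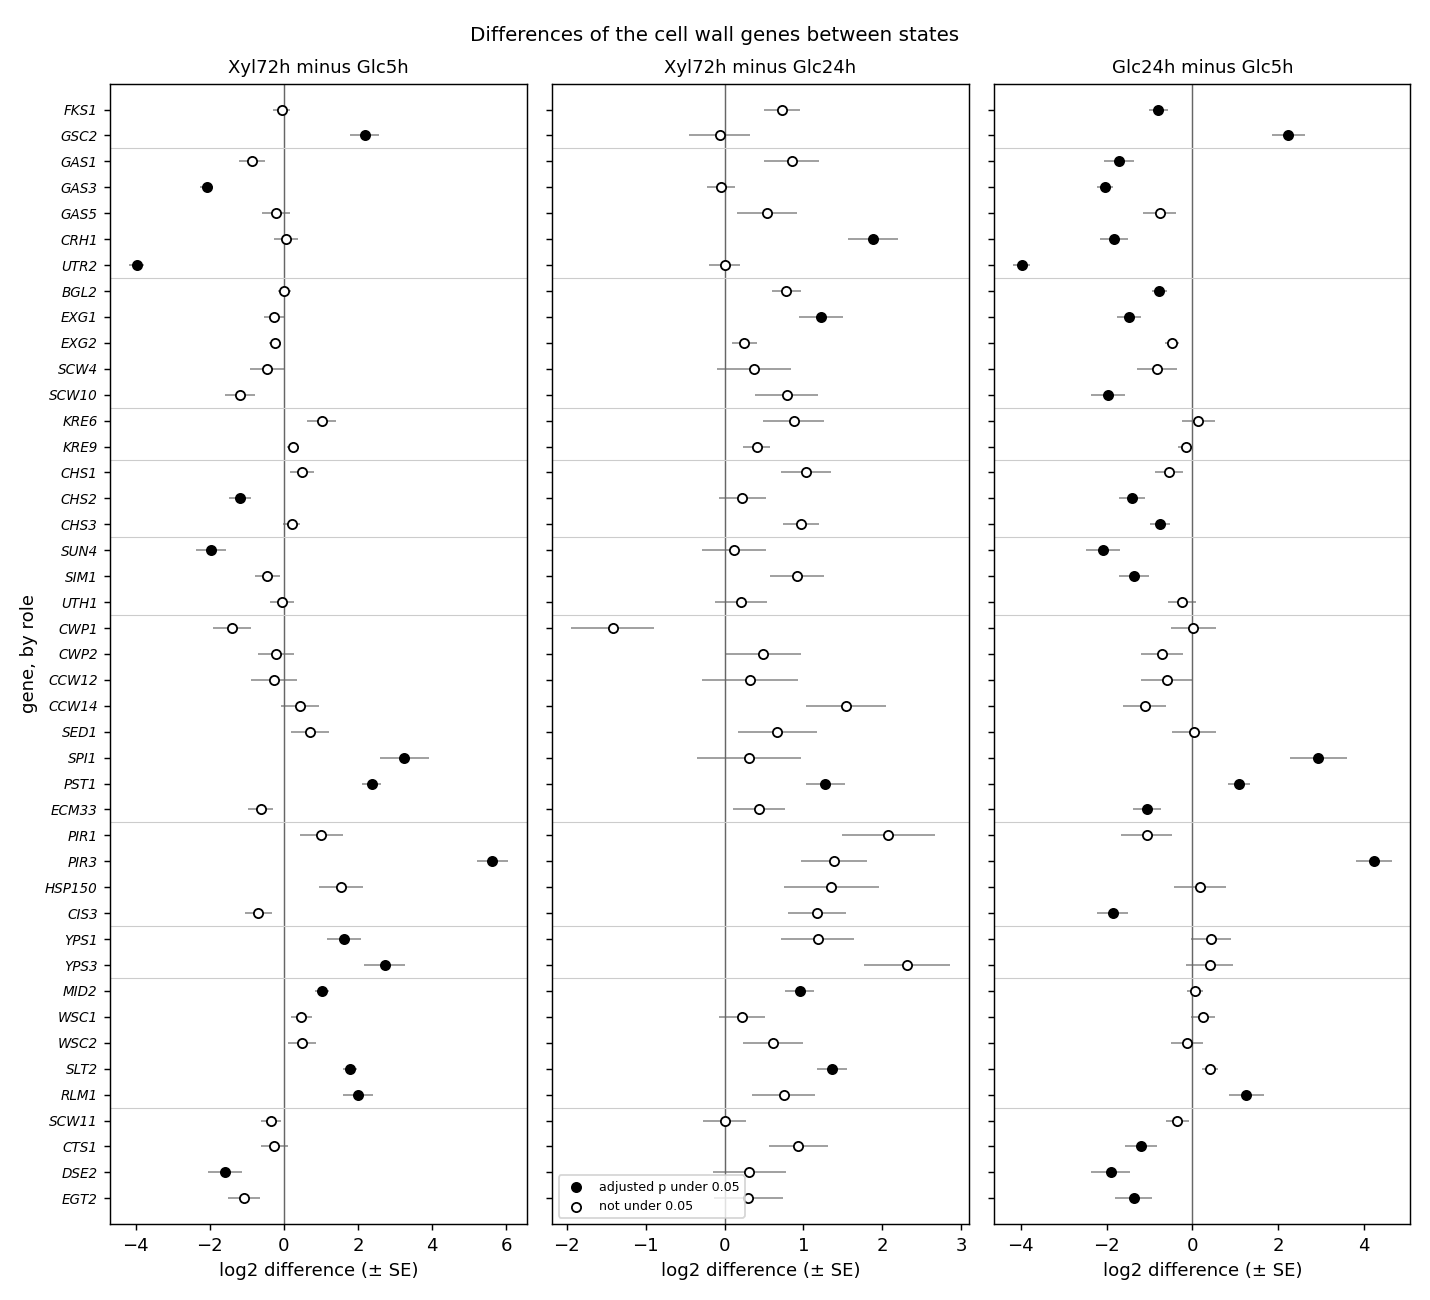
Log2 differences of the 43 tested genes in the 3 comparisons (x axis, log2 units, points with SE; y axis, genes by role). Filled points have an adjusted p under 0.05: 14 genes for Xyl72h minus Glc5h, 5 for Xyl72h minus Glc24h and 22 for Glc24h minus Glc5h. Differences run from -3.97 (UTR2) to 5.62 (PIR3) in Xyl72h minus Glc5h.

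The 2 subunit genes of beta-1,3-glucan synthase had different patterns over the states. FKS1, the catalytic subunit gene used during growth on glucose, gave signals of 409.9, 451 and 423 in Xyl72h, 259, 221 and 300.2 in Glc24h, and 526, 543 and 310.4 in Glc5h cells. It fell in Glc24h relative to Glc5h cells, by 0.79 ± 0.23 on the log2 scale (adjusted p = 0.032), and the lowest Glc5h culture, of fermentation 2, was only just above the highest Glc24h culture. With the fermentation number as a block the adjusted p was 0.0525, and the call was made only without the Glc24h or the Glc5h sample of fermentation 2 among the fits that left out 1 sample (adjusted p up to 0.106). The call was also lost with signals as deposited and under quantile, cyclic loess and reference gene scaling (up to 0.403 over all alternatives). For Xyl72h minus Glc5h the FKS1 difference was -0.06 ± 0.23 (adjusted p = 0.909), and it was 0.08 after quantile normalisation. GSC2, the alternative catalytic subunit known from starved and stressed cells, gave 352, 296 and 328 in Xyl72h, 466, 238 and 352 in Glc24h, and 48.7, 129 and 58.6 in Glc5h cells. Every Xyl72h and Glc24h culture was above every Glc5h culture. GSC2 was higher than in Glc5h cells by 2.18 ± 0.39 in Xyl72h (adjusted p = 0.00673) and by 2.24 ± 0.39 in Glc24h cells (adjusted p = 0.00428), and the Xyl72h minus Glc24h difference was -0.06 ± 0.39. In xylose-grown cells the estimate was 0.06 log2 units under the Glc5h level for FKS1 and 0.06 under the Glc24h level for GSC2, each the higher of the glucose states. The SEs of 0.23 and 0.39 leave room for larger differences.

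The array carries 7 other probe sets for FKS1 and 6 for GSC2, and of these 4 and 4 were above the floor on some array. None was called in any comparison. The brightest of the other FKS1 probe sets averaged 259 in Xyl72h, 129 in Glc24h and 212 in Glc5h cells, and the brightest for GSC2 161, 138 and 37.5 in the same order. By these means FKS1 was lowest in Glc24h and GSC2 in Glc5h cells on these probe sets too. The FKS1 mean in Glc24h cells holds 16.0 from fermentation 1, the sample that stood apart, beside 203 and 168. In Glc5h cells that probe set gave 226, 321 and 88.1. The GSC2 probe set gave 223, 38.9 and 151 in Glc24h and 22.3, 68.2 and 22.1 in Glc5h cells. Within fermentation 1 its signal was lower in the Glc24h than in the Glc5h sample.

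Among the genes for remodelling and crosslinking of glucan, UTR2 and GAS3 fell in both later states and CRH1 only in Glc24h cells. UTR2 and CRH1 encode related transglycosylases that join chitin to glucan. UTR2 gave 16.0, 16.0 and 16.1 in Xyl72h, the floor of 16 in all 3 Glc24h cultures, and 239, 193 and 347 in Glc5h cells. All 6 cultures of the later states were at or next to the floor. The differences from Glc5h cells were -3.97 ± 0.20 in Xyl72h (adjusted p = 4.95e-05) and -3.98 ± 0.20 in Glc24h cells (adjusted p = 5.32e-05), and the Glc24h level was at least 15.8-fold lower, since the floor sets the fold.

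CRH1 gave 221, 279 and 185 in Xyl72h, 87.7, 39.1 and 66.4 in Glc24h, and 214, 173 and 275 in Glc5h cells. The Glc24h cultures were below all others, while the Xyl72h and Glc5h cultures overlapped. CRH1 was higher in Xyl72h than in Glc24h cells (1.88 ± 0.32, adjusted p = 0.0188) and lower in Glc24h than in Glc5h cells (-1.83 ± 0.32, adjusted p = 0.0046). The Xyl72h minus Glc5h difference was 0.05 ± 0.32 (adjusted p = 0.959). Leaving out single samples gave adjusted p-values of 0.0244 to 0.0805 for Xyl72h minus Glc24h, with the call lost without any of the Xyl72h samples or the Glc24h sample of fermentation 2. It was 0.0354 without the Glc24h sample of fermentation 1.

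The GAS genes encode glucanosyltransferases and relatives that lengthen beta-1,3-glucan. GAS1, the main enzyme of vegetative growth, gave 559, 565 and 487 in Xyl72h, 386, 216 and 314 in Glc24h, and 1480.1, 1054 and 587 in Glc5h cells. The Glc5h cultures spread widely but none overlapped with the other states. The difference was -1.71 ± 0.35 for Glc24h minus Glc5h (adjusted p = 0.00833) and -0.86 ± 0.35 for Xyl72h minus Glc5h, which did not pass (adjusted p = 0.112). GAS3 was close to the floor outside Glc5h: 16.0, 18.3 and 16.9 in Xyl72h, 17.4, 16.4 and 19.1 in Glc24h, and 70.1, 94.1 and 57.6 in Glc5h cells. Relative to Glc5h cells it fell in Xyl72h (-2.09 ± 0.18, adjusted p = 0.000446) and in Glc24h cells (-2.04 ± 0.18, adjusted p = 0.000296). GAS5 averaged 263 ± 26.1 in Xyl72h, 191 ± 71.1 in Glc24h and 326 ± 145 in Glc5h cells (SD, n = 3) and was called in no comparison.

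**Figure D3:**
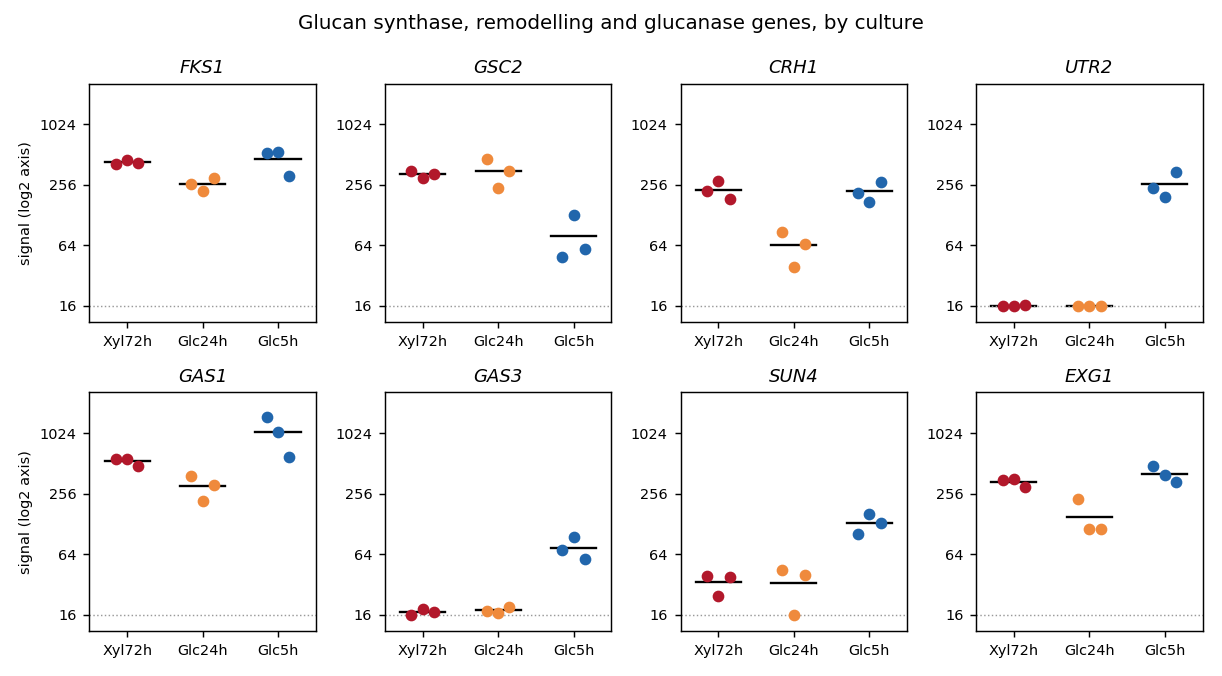
Signals of 8 genes of glucan synthesis, remodelling and degradation in each culture (y axis, log2-spaced signal; x axis, state; points are cultures of fermentations 0, 1 and 2 from left to right, bars are means, and the dotted line is the floor of 16). GSC2 is lowest in the 3 Glc5h cultures, at 48.7 to 129, and UTR2 and GAS3 are near the floor in all Xyl72h and Glc24h cultures. CRH1 and EXG1 are lowest in Glc24h.

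Of the 5 glucanases and glucanase-like wall proteins EXG1, BGL2 and SCW10 fell in Glc24h relative to Glc5h cells. EXG1, the major secreted exo-beta-1,3-glucanase, gave 346, 353 and 301 in Xyl72h, 225, 112 and 114 in Glc24h, and 481, 392 and 330.3 in Glc5h cells, so that no Glc24h culture reached any other. It fell in Glc24h relative to Glc5h cells (-1.48 ± 0.28, adjusted p = 0.00632) and was higher in Xyl72h than in Glc24h cells (1.22 ± 0.28, adjusted p = 0.0499). The second call was narrow and, of the fits that left out 1 sample, was made only without the Glc24h sample of fermentation 0 (adjusted p up to 0.159, and 0.139 without the Glc24h sample of fermentation 1). BGL2, a glucan transferase abundant in the wall, gave 709, 582 and 662 in Xyl72h, 450.4, 283 and 419 in Glc24h, and 639, 659 and 627 in Glc5h cells. It fell in Glc24h relative to Glc5h cells by 0.77 ± 0.18 (adjusted p = 0.015), a call lost under quantile, cyclic loess and reference gene scaling (up to 0.279). Its Xyl72h minus Glc24h difference of 0.79 ± 0.18 missed the threshold (adjusted p = 0.0515) and passed it with the fermentation number as a block (0.0432).

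SCW10 fell in Glc24h relative to Glc5h cells by 1.97 ± 0.40 (adjusted p = 0.00856), with means of 106 ± 47.5 and 388 ± 92.5 (SD, n = 3), and averaged 171 ± 44.7 in Xyl72h cells. Its paralogue SCW4 had signals of 693, 451 and 714 in Xyl72h, 770.1, 211 and 633 in Glc24h, and 762, 771 and 966 in Glc5h cells. The Glc24h sample of fermentation 1 was far below the others, and the difference of -0.82 ± 0.46 from Glc5h cells did not pass (adjusted p = 0.215) and was -0.25 without that sample. For Xyl72h minus Glc24h it was 0.37 ± 0.46 but -0.17 after cyclic loess and -0.20 without that sample, and for Xyl72h minus Glc5h -0.45 ± 0.46. EXG2, a GPI-anchored exoglucanase, averaged 20.5, 17.0 and 23.7 in Xyl72h, Glc24h and Glc5h cells, close to the floor of 16, and was not called. Its Glc24h minus Glc5h difference of -0.48 (adjusted p = 0.0527) passed with the block (0.0451). It also passed under quantile normalisation, under cyclic loess and without the Xyl72h sample of fermentation 1. Without that sample EXG2 was called lower in Xyl72h than in Glc5h cells too.

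The genes of beta-1,6-glucan, the polymer that carries most mannoproteins, were called in no comparison. KRE9, a secreted protein needed for its assembly, had signals of 174, 216 and 163 in Xyl72h, 141, 147 and 127 in Glc24h, and 183, 157 and 128 in Glc5h cells. These ranges overlapped except between Xyl72h and Glc24h. The differences were 0.25 ± 0.17 for Xyl72h minus Glc5h, 0.41 ± 0.17 for Xyl72h minus Glc24h and -0.16 ± 0.17 for Glc24h minus Glc5h (adjusted p = 0.329, 0.246 and 0.507), and the sign of the last turned with the scaling (0.33 after scaling on reference genes). KRE6, a glucosyl hydrolase of the secretory pathway, averaged 144 ± 44.8 in Xyl72h, 80.1 ± 29.0 in Glc24h and 71.9 ± 26.6 in Glc5h cells (SD, n = 3). The xylose cultures were above all glucose cultures, but the difference of 1.02 ± 0.39 from Glc5h cells did not pass (adjusted p = 0.0953).

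All 3 chitin synthase genes had negative Glc24h minus Glc5h and positive Xyl72h minus Glc24h differences, as had 29 and 39 of the 43 wall genes. For Xyl72h minus Glc5h only CHS2 had a negative difference. Differences between these genes were not tested. CHS2, which builds the primary septum at division, gave 16.0, 25.6 and 16.0 in Xyl72h, the floor in all 3 Glc24h cultures, and 26.8, 51.7 and 54.4 in Glc5h cells. It was lower than in Glc5h cells in Xyl72h (-1.18 ± 0.30, adjusted p = 0.026) and at least 2.64-fold lower in Glc24h cells (-1.40 ± 0.30, adjusted p = 0.0101). Without the Xyl72h sample of fermentation 0 or 2, or the Glc5h sample of fermentation 1 or 2, the Xyl72h call was lost (adjusted p up to 0.0899). CHS3, which makes most of the chitin of the lateral wall and the ring at the bud neck, gave 111, 203 and 158 in Xyl72h, 91.6, 66.6 and 77.9 in Glc24h, and 130.3, 142 and 124 in Glc5h cells. Its Glc24h cultures were below all others. It fell in Glc24h relative to Glc5h cells by 0.76 ± 0.23 (adjusted p = 0.0362, and 0.058 with the fermentation number as a block). Of the 9 fits without 1 sample only those without the Xyl72h sample of fermentation 0 or 1 or the Glc24h sample of fermentation 0 made that call (adjusted p up to 0.103). It was also lost with signals as deposited and under quantile, cyclic loess and reference gene scaling (up to 0.497 over all alternatives). The Xyl72h minus Glc24h difference of 0.97 ± 0.23 lay just outside the threshold (adjusted p = 0.0519). For Xyl72h minus Glc5h it was 0.21 ± 0.23 (adjusted p = 0.537). CHS1, the repair enzyme, averaged 60.4, 27.9 and 40.7 in Xyl72h, Glc24h and Glc5h cells and was higher in Xyl72h than in Glc24h cells only with the block (1.03, adjusted p = 0.0425, against 0.122 without it).

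In the SUN family, whose members act in septum formation and wall morphogenesis, SUN4 was lower in both later states. It gave 38.9, 24.6 and 37.7 in Xyl72h, 44.3, 16.0 and 39.5 in Glc24h, and 101, 161 and 131 in Glc5h cells, without overlap. The differences from Glc5h cells were -1.96 ± 0.41 in Xyl72h (adjusted p = 0.012) and -2.08 ± 0.41 in Glc24h cells (adjusted p = 0.00698). SIM1 averaged 155 ± 22.6 in Xyl72h, 84.6 ± 26.4 in Glc24h and 219.7 ± 77.0 in Glc5h cells (SD, n = 3) and fell in Glc24h relative to Glc5h cells (-1.36 ± 0.34, adjusted p = 0.0185), but not without the Glc24h sample of fermentation 1 (0.0503) or the Glc5h sample of fermentation 1 or 2 (up to 0.0618).

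UTH1, the brightest probe set of the SUN genes, had signals of 1308, 836 and 836 in Xyl72h, 1236, 569.7 and 848 in Glc24h, and 1318, 838 and 905 in Glc5h cells. All states overlapped, and the differences were -0.04 ± 0.33, 0.20 ± 0.33 and -0.25 ± 0.33 for Xyl72h minus Glc5h, Xyl72h minus Glc24h and Glc24h minus Glc5h (adjusted p = 0.979, 0.864 and 0.594). The sign of the last depends on the scaling: it was 0.52 after quantile normalisation (adjusted p = 0.0198) and 0.35 after cyclic loess (adjusted p = 0.0254), so no direction can be given for UTH1.

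The wall genes with the strongest signals shared a pattern by fermentation that was not specific to them. Of the 9 genes with a mean over 500, fermentation 0 gave the highest of the 3 cultures for 7 in Xyl72h, 9 in Glc24h and 6 in Glc5h cells, and over all 243 such probe sets it did so in 86.4%, 77.0% and 81.9%. CCW12, a major structural GPI mannoprotein, had signals of 3793, 1192 and 2066 in Xyl72h, 2576, 813 and 2285 in Glc24h, and 4512, 1775 and 2027 in Glc5h cells. The differences were -0.27 ± 0.61, 0.32 ± 0.61 and -0.59 ± 0.61 for Xyl72h minus Glc5h, Xyl72h minus Glc24h and Glc24h minus Glc5h (adjusted p = 0.811, 0.899 and 0.494), and each changed sign under cyclic loess or quantile scaling. A difference of the size of this SE was not detectable with 3 cultures a state.

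CWP2 averaged 1238 ± 456 in Xyl72h, 918 ± 455 in Glc24h and 1505 ± 791 in Glc5h cells, and SED1, the mannoprotein typical of stationary phase, 1073 ± 352, 757 ± 442 and 650.5 ± 164 (SD, n = 3). Neither was called, apart from CWP2 for Glc24h minus Glc5h with the block (-0.71, adjusted p = 0.0471, against 0.304 without it). CCW14 averaged 897 ± 214 in Xyl72h, 354 ± 204 in Glc24h and 668 ± 166 in Glc5h cells. All its Xyl72h cultures were above all its Glc24h cultures, but the difference of 1.55 ± 0.51 did not pass (adjusted p = 0.141), and without the Glc24h sample of fermentation 1 it was 0.93 (adjusted p = 0.156). CWP1 was the gene with the most negative Xyl72h minus Glc24h difference (-1.42 ± 0.52, adjusted p = 0.192). Its signals were 132, 95.3 and 57.0 in Xyl72h, 554, 148 and 167 in Glc24h, and 254, 199 and 259.8 in Glc5h cells, with the xylose cultures below all others. For Xyl72h minus Glc5h the difference of -1.40 ± 0.52 (adjusted p = 0.0912) passed with the fermentation number as a block (adjusted p = 0.0462).

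SPI1, PST1 and ECM33 were the GPI protein genes that passed a test. SPI1 is a relative of SED1 known from weak acid stress and growth arrest. It gave 888, 333 and 595 in Xyl72h, 474, 338 and 578 in Glc24h, and 26.7, 47.8 and 163 in Glc5h cells. Both later states lay above all Glc5h cultures, by 3.24 ± 0.66 in Xyl72h (adjusted p = 0.0112) and 2.93 ± 0.66 in Glc24h cells (adjusted p = 0.0122), although the Glc5h cultures themselves spanned 26.7 to 163. The Xyl72h minus Glc24h difference of 0.31 ± 0.66 was within the spread of the cultures.

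PST1 and ECM33 are related GPI proteins, and PST1 is known as a target of the integrity pathway. PST1 gave 822, 571 and 595 in Xyl72h, 304, 195 and 328 in Glc24h, and 126, 153 and 104 in Glc5h cells, with no overlap between any pair of states. It was higher in Xyl72h than in Glc5h cells by 2.37 ± 0.25 (adjusted p = 0.000975), in Xyl72h than in Glc24h cells by 1.28 ± 0.25 (adjusted p = 0.0305) and in Glc24h than in Glc5h cells by 1.09 ± 0.25 (adjusted p = 0.0133). The Xyl72h minus Glc24h call was lost without any single Xyl72h or Glc24h sample or the Glc5h sample of fermentation 0 (adjusted p up to 0.0924, and 0.0614 without the Glc24h sample of fermentation 1), at differences of 1.05 to 1.42. ECM33 was highest in Glc5h cells. It averaged 756 ± 110.3 in Xyl72h, 585 ± 215 in Glc24h and 1187 ± 326 in Glc5h cells (SD, n = 3) and fell in Glc24h relative to Glc5h cells (-1.07 ± 0.33, adjusted p = 0.0401), a call that, of the 9 fits without 1 sample, only the one without the Glc24h sample of fermentation 0 made (adjusted p up to 0.135).

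The PIR genes held the largest change of all the wall genes and also a gene that moved the other way. PIR3 gave 1297, 718 and 810.1 in Xyl72h, 607, 204 and 337 in Glc24h, and 16.0, 16.0 and 24.8 in Glc5h cells. Each culture of the later states was far above each Glc5h culture, and the Xyl72h cultures were all above the Glc24h cultures. The difference was 5.62 ± 0.42 for Xyl72h minus Glc5h (adjusted p = 0.000241), a 49.2-fold ratio that the floor in the Glc5h samples of fermentations 0 and 1 limits, and 4.23 ± 0.42 for Glc24h minus Glc5h (adjusted p = 0.000437). For Xyl72h minus Glc24h it was 1.39 ± 0.42 (adjusted p = 0.114).

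CIS3 gave 204, 307 and 167 in Xyl72h, 133, 59.7 and 116 in Glc24h, and 442, 381 and 262 in Glc5h cells. It fell in Glc24h relative to Glc5h cells by 1.86 ± 0.37 (adjusted p = 0.00749). PIR1 and HSP150 did not pass in any comparison of the main fit. PIR1 gave 439, 428 and 376 in Xyl72h, 227, 42.1 and 97.8 in Glc24h, and 241, 291 and 122 in Glc5h cells, and HSP150 averaged 345 ± 96.8, 173 ± 156 and 118 ± 29.9 in Xyl72h, Glc24h and Glc5h cells (SD, n = 3). In both the Xyl72h cultures were above all Glc5h cultures. For Xyl72h minus Glc24h the PIR1 difference of 2.08 ± 0.59 had an adjusted p of 0.0974 over Glc24h samples that ran from 42.1 to 227. Without the lowest of these, of fermentation 1, it was 1.47 (adjusted p = 0.174), and the Glc24h minus Glc5h difference was -0.46 in place of -1.06. Without the highest, of fermentation 0, PIR1 was called higher in Xyl72h than in Glc24h and lower in Glc24h than in Glc5h cells. In that fit HSP150 was called higher in Xyl72h than in either glucose state. With 16 added to every signal in place of the floor, PIR1 was also called higher in Xyl72h than in Glc24h cells.

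YPS1 and YPS3 encode yapsins, GPI-anchored aspartyl proteases that process wall proteins, and both had their highest mean on xylose. YPS3 gave 191, 249 and 76.4 in Xyl72h, 38.8, 16.0 and 47.9 in Glc24h, and 18.1, 30.1 and 23.4 in Glc5h cells. All xylose cultures were above all glucose cultures, and the difference was 2.72 ± 0.54 from Glc5h cells (adjusted p = 0.0106) and 2.31 ± 0.54 from Glc24h cells, just outside the threshold (adjusted p = 0.0536). YPS1 gave 355, 382 and 261 in Xyl72h, 281, 73.0 and 148 in Glc24h, and 94.9, 147 and 87.1 in Glc5h cells. It was 1.62 ± 0.47 higher in Xyl72h than in Glc5h cells (adjusted p = 0.0397), but with the fermentation number as a block the adjusted p was 0.0538, and of the 9 fits without 1 sample only those without the Glc24h sample of fermentation 0 or 1 made the call (adjusted p up to 0.126). The other differences of YPS1 were 1.18 ± 0.47 for Xyl72h minus Glc24h and 0.44 ± 0.47 for Glc24h minus Glc5h (adjusted p = 0.22 and 0.504).

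**Figure D4:**
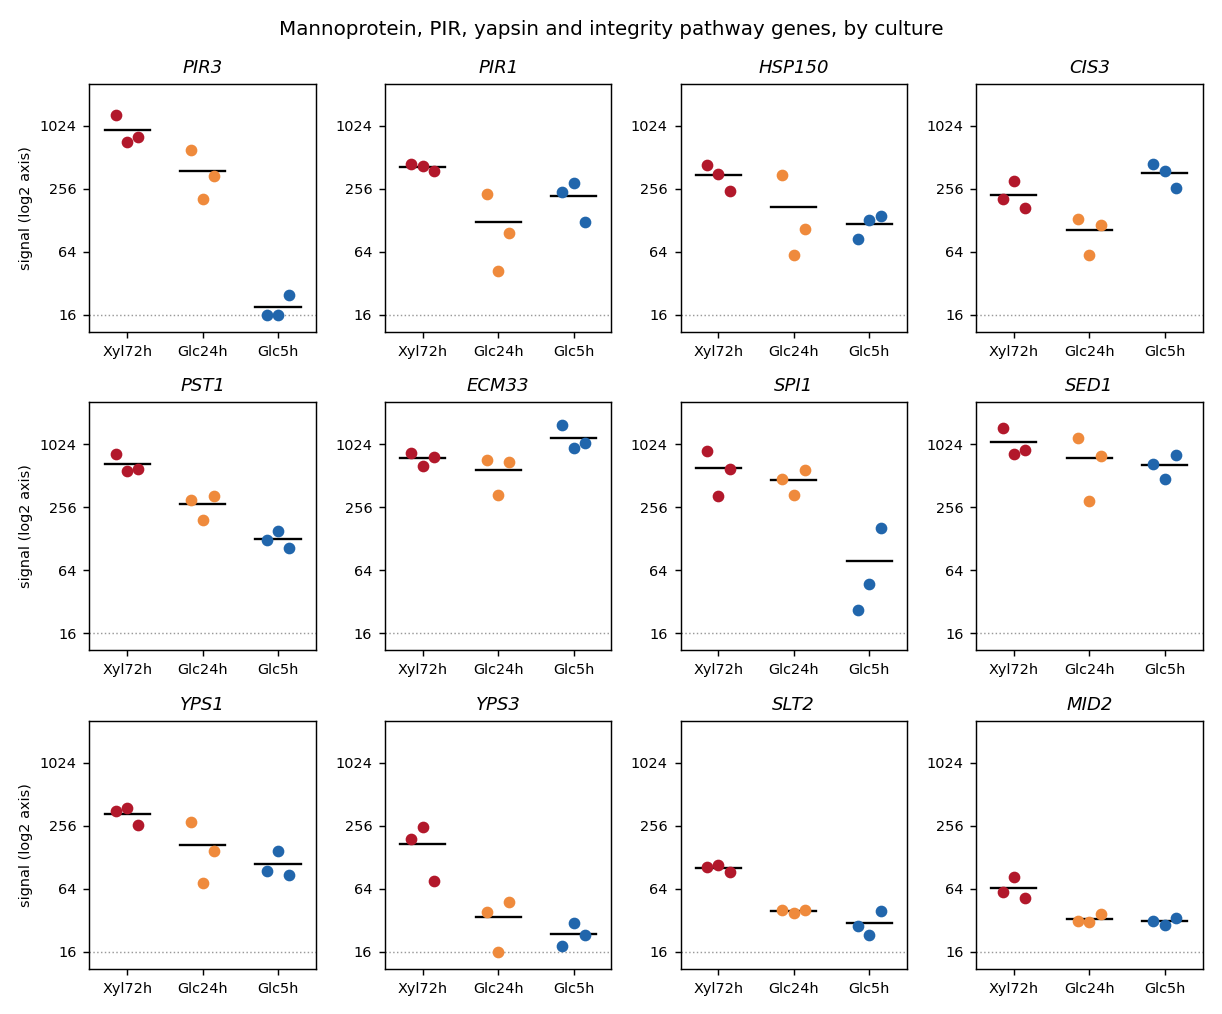
Signals of 12 genes for PIR proteins, GPI mannoproteins, yapsins and the integrity pathway in each culture (y axis, log2-spaced signal; x axis, state; points are cultures of fermentations 0, 1 and 2 from left to right, bars are means, and the dotted line is the floor of 16). PIR3 lies at 718 to 1297 in Xyl72h and 16.0 to 24.8 in Glc5h cells, PST1 falls into 3 separate ranges, and SLT2 and MID2 are higher in every Xyl72h culture than in any glucose culture.

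All 5 genes for sensors, kinase and transcription factor of the integrity pathway had positive Xyl72h minus Glc5h and Xyl72h minus Glc24h differences. So had 21 and 39 of the 43 wall genes, and 43.9% and 46.4% of all tested probe sets. Of the 5 genes 3 and 2 were called higher (background 11.7% and 3.37%). SLT2, the MAP kinase, gave 104, 109 and 92.0 in Xyl72h, 40.6, 37.8 and 39.8 in Glc24h, and 28.1, 23.2 and 39.4 in Glc5h cells. The xylose cultures were clear of all others, by 1.78 ± 0.19 from Glc5h (adjusted p = 0.000987) and 1.37 ± 0.19 from Glc24h cells (adjusted p = 0.00919). The Glc24h minus Glc5h difference of 0.42 ± 0.19 did not pass (adjusted p = 0.133). Without the Glc24h sample of fermentation 1 the Xyl72h minus Glc24h difference was 1.34 (adjusted p = 0.0346).

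MID2, a plasma membrane sensor, gave 59.4, 84.0 and 52.0 in Xyl72h, 31.2, 30.8 and 36.9 in Glc24h, and 31.7, 29.1 and 33.4 in Glc5h cells. It was higher on xylose than in Glc5h cells by 1.02 ± 0.19 (adjusted p = 0.0072) and than in Glc24h cells by 0.96 ± 0.19 (adjusted p = 0.0295), while the glucose states overlapped. Without the Glc24h sample of fermentation 1 the second difference was 0.91 (adjusted p = 0.0816), and it was also lost without the Xyl72h sample of fermentation 0 or 1 or either other Glc24h sample. RLM1, the transcription factor, gave 124, 109.8 and 79.9 in Xyl72h, 76.2, 46.5 and 64.6 in Glc24h, and 22.1, 16.0 and 47.4 in Glc5h cells. It was 2.01 ± 0.40 higher in Xyl72h than in Glc5h cells (adjusted p = 0.0107). The Glc24h minus Glc5h difference of 1.26 ± 0.40 was called at an adjusted p of 0.0467, but its cultures overlapped and the call was lost with the fermentation number as a block (0.0524) and in every fit without 1 sample other than that without the Glc5h sample of fermentation 2 (up to 0.145). For Xyl72h minus Glc24h it was 0.75 ± 0.40 (adjusted p = 0.378). The sensors WSC1 and WSC2 averaged 59.97 and 77.2 in Xyl72h, 52.9 and 52.7 in Glc24h, and 42.9 and 56.8 in Glc5h cells and were not called.

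The genes for separation of the daughter cell that passed were lower in Glc24h than in Glc5h cells, and of these only DSE2 was also called lower in Xyl72h cells. DSE2, a glucanase-like protein of the daughter side, gave 119, 61.96 and 94.6 in Xyl72h, between 34.1 and 106 in Glc24h, and 272, 317 and 218 in Glc5h cells. The differences from Glc5h cells were -1.58 ± 0.46 in Xyl72h (adjusted p = 0.0404) and -1.90 ± 0.46 in Glc24h cells (adjusted p = 0.0159). Of the 9 fits without 1 sample the first was called only in those without the Glc24h sample of fermentation 1 or 2 (up to 0.123) and the second was lost without the Glc5h sample of fermentation 0 or 1 (up to 0.0566). CTS1, the endochitinase that cuts the septum, gave 359, 251 and 242 in Xyl72h, 208, 93.5 and 160.3 in Glc24h, and 218, 450.1 and 379.6 in Glc5h cells. It fell in Glc24h relative to Glc5h cells by 1.19 ± 0.37 (adjusted p = 0.0415), and neither the block (0.0695) nor the fits without 1 sample, other than those without the Glc24h or the Glc5h sample of fermentation 0, made that call (up to 0.125, and 0.11 without the Glc24h sample of fermentation 1). CTS1 also lost the call with signals as deposited and under quantile, cyclic loess and reference gene scaling (up to 0.2 over all alternatives). Its other differences were -0.26 ± 0.37 for Xyl72h minus Glc5h and 0.94 ± 0.37 for Xyl72h minus Glc24h (adjusted p = 0.673 and 0.222).

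EGT2 averaged 48.4 ± 11.5 in Xyl72h, 42.5 ± 23.5 in Glc24h and 105 ± 39.2 in Glc5h cells (SD, n = 3). Its Glc24h minus Glc5h call (-1.37 ± 0.44, adjusted p = 0.0456) came with overlapping cultures and was made, among the fits without 1 sample, only without the Glc24h sample of fermentation 0 or the Glc5h sample of fermentation 2 (up to 0.138). SCW11 was above the floor in 1 culture, the Glc5h culture of fermentation 1, and DSE1 in none. Some markers of the dividing cell were also lower. Of 13 tested cell cycle markers 4 (CLN1, PCL1, CLB5 and CDC5) were lower in Xyl72h than in Glc5h cells (background 14%) and 0 higher (0 higher also at an unadjusted p under 0.05), and for Glc24h minus Glc5h 6 fell (background 19.1%) and 0 rose (1 at an unadjusted p under 0.05). Their median log2 differences were -0.72 and -0.85, and 3 of the 13 had a positive difference in each comparison. The part of the dividing fraction in the septum and separation genes was not tested.

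The genes that feed the wall with sugar chains and anchors were examined as further lists. Over all tested probe sets 14% fell in Xyl72h and 19.1% in Glc24h relative to Glc5h cells. Enzymes of protein O-mannosylation fell in 4 of 10 tested genes (40%) in both comparisons, and 0 rose (0 also at an unadjusted p under 0.05 in the limma fit). They were PMT1, PMT2, PMT4 and KTR3. PMT4, the mannosyltransferase of membrane-bound proteins, averaged 66.7, 53.0 and 199 in Xyl72h, Glc24h and Glc5h cells (-1.59 and -1.92 against Glc5h cells, adjusted p = 0.00062 and 0.000193). Of 15 tested genes of GDP-mannose supply and N-glycan mannan, 4 fell in Xyl72h and 7 in Glc24h relative to Glc5h cells, and 1 rose in each (background 11.7% and 14.4%). The GDP-mannose enzymes PMI40 and SEC53 averaged 103 and 228 in Xyl72h, 67.7 and 183 in Glc24h, and 309 and 833 in Glc5h cells, and the Golgi GDP-mannose transporter gene VRG4 fell by 1.44 in Xyl72h and by 2.13 in Glc24h relative to Glc5h cells. PSA1, which makes GDP-mannose, averaged 358 in Xyl72h, 138 in Glc24h and 819 in Glc5h cells and passed only for Glc24h minus Glc5h (-2.48, adjusted p = 0.00872).

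In GPI anchor synthesis and transfer, 4 of 20 tested genes fell in Xyl72h (20%, background 14%) and 5 in Glc24h (25%, background 19.1%) relative to Glc5h cells, shares close to the background, and 0 rose (1 and 1 at an unadjusted p under 0.05). MCD4 and PER1, which modify the anchor, averaged 60.6 and 31.6 in Xyl72h, 46.8 and 35.3 in Glc24h, and 332 and 134 in Glc5h cells. DFG5, thought to link GPI proteins to the wall, was higher in Xyl72h than in Glc24h cells (1.28, adjusted p = 0.0333). For the O-mannosylation, mannan and GPI lists the median Xyl72h minus Glc5h differences were -0.52, -0.75 and -0.43, against -0.02 over all tested probe sets.

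Of 18 tested genes for other parts of the integrity pathway 4, ROM1 and MKK1 among them, rose in Xyl72h relative to Glc5h cells (background 11.7%) and WSC4 fell (-1.59, adjusted p = 0.0078). Relative to Glc24h cells 0 rose (background 3.37%, also 0 at an unadjusted p under 0.05), and ROM1, an exchange factor for Rho1, fell (-1.04, adjusted p = 0.0186), with means of 43.9, 90.3 and 17.6 in Xyl72h, Glc24h and Glc5h cells. MKK1, a kinase directly upstream of Slt2, averaged 59.0 in Xyl72h, 59.3 in Glc24h and 27.9 in Glc5h cells. Among 24 tested other mannoproteins and yapsins, 6 rose (background 11.7%) and 4 fell (background 14%) in Xyl72h relative to Glc5h cells. NCW2, a structural wall protein, averaged 391 in Xyl72h, 50.3 in Glc24h and 112 in Glc5h cells and was higher on xylose than in either glucose state (1.83, adjusted p = 0.0189, and 3.03, adjusted p = 0.00935). AGA1, the anchor of a-agglutinin, rose in Xyl72h relative to Glc5h cells (2.47, adjusted p = 0.0288), and TIR3 and TOS6 fell (-2.18 and -1.99, adjusted p = 0.0166 and 0.0303). The yapsin gene MKC7, singled out after its values were seen, was at the floor in all Xyl72h and Glc24h cultures and averaged 43.3 in Glc5h cells, and fell in both later states (-1.42 in each, adjusted p = 0.000545 and 0.000325).

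Of 9 tested accessory genes of beta-1,6-glucan 3 rose (background 11.7%) and 1 fell (background 14%) in Xyl72h relative to Glc5h cells. SKN1 and KNH1, the relatives of KRE6 and KRE9, both rose in Xyl72h relative to Glc5h cells (1.48 and 1.50, adjusted p = 0.0232 and 0.000696), and KNH1 was also higher than in Glc24h cells (0.70, adjusted p = 0.0383). KEG1, a partner of KRE6 in the endoplasmic reticulum, fell in Xyl72h relative to Glc5h cells (-1.14, adjusted p = 0.00401). Of 4 tested glucan paralogues and regulators 1 rose (background 11.7%) and 1 fell (background 14%) in that comparison: SMI1, a regulator of glucan synthesis, fell (-1.07, adjusted p = 0.0185). FKS3, another relative of the glucan synthase subunits, rose in Xyl72h and Glc24h relative to Glc5h cells (0.98 and 1.49, adjusted p = 0.0279 and 0.00417). Of 10 tested genes of chitin precursor and delivery 1 rose (background 11.7%) and 2 fell (background 14%) in Xyl72h relative to Glc5h cells, shares close to the background. CHS6, part of the coat that sends Chs3 to the cell surface, rose in Xyl72h relative to Glc5h cells (0.90, adjusted p = 0.0398) and CHS7, needed for the export of Chs3 from the endoplasmic reticulum, relative to Glc24h cells (0.77, adjusted p = 0.0332), while QRI1 and PCM1, which make the precursor UDP-N-acetylglucosamine, fell relative to Glc5h cells (-1.27 and -0.54, adjusted p = 0.00263 and 0.0319).

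**Figure D5:**
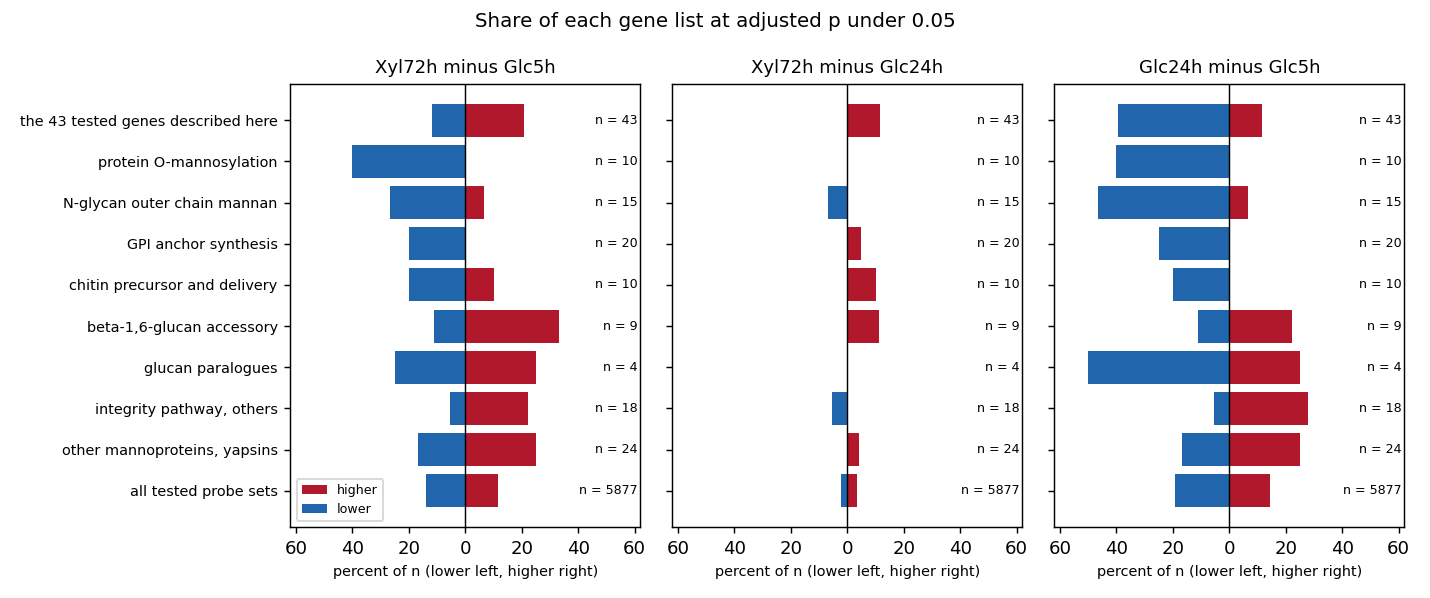
Share of the 43 tested wall genes, of 8 further lists of wall-related genes and of all 5877 tested probe sets with an adjusted p under 0.05 (x axis, percent of the n given at the right, higher to the right of 0 in red and lower to the left in blue) in each comparison. In Xyl72h against Glc5h cells 4 of 10 O-mannosylation, 4 of 15 mannan and 4 of 20 GPI anchor genes are lower, and 4 of 18 integrity pathway genes are higher.

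Several of the 44 genes are neighbours in the genome, and their calls are given side by side. In the RefSeq annotation of assembly R64, PIR1 and PIR3 lie side by side on chromosome XI, HSP150 and CIS3 on chromosome X, YPS1 and YPS3 on chromosome XII, and CWP1 and CWP2 on chromosome XI. PIR3 was called for Xyl72h minus Glc5h and PIR1 was not (5.62 and 1.02), and CIS3 was called for Glc24h minus Glc5h and HSP150 was not (-1.86 and 0.18). YPS1 and YPS3 were both called for Xyl72h minus Glc5h (1.62 and 2.72). Differences between the changes of neighbours were not tested.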

How the data were processed

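RNA was hybridised to 15 Affymetrix Yeast Genome S98 arrays. The authors extracted the values with Affymetrix MicroArray Suite 5.0 and deposited linear signal intensities of 9335 probe sets, scaled on each array to a mean of 50 over signals without the top and bottom 2%. These are not the Robust Multichip Average values of the methods. Samples were grouped by titles and source names, since the treatment text of 9 arrays (all Xyl72h arrays and the Glc24h arrays of fermentations 1 and 2) gives other harvest times. After removal of 60 control probe sets, arrays were scaled to the median of their 75th percentiles (51.08). Signals under 16 (52.3% of values) were set to 16, log2 was taken, and hybridisations of a sample were averaged. Of 9275 probe sets, 3398 at the floor on every array were left out. The array number and these dim signals limit the precision.

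All 9 samples entered 1 linear model in limma 3.58.1 (R 4.3.3, statmod 1.5.0; lmFit, eBayes, two-sided, Benjamini-Hochberg adjustment over 5877 probe sets, adjusted p under 0.05). An exact permutation test of 3 against 3 cannot go below p = 0.1. The fit was tested on simulated data. Gene names came from the platform annotation, updated by identifier with RefSeq genes: 6504 probe sets had 1 name, 328 several and 2443 none. Full values are given for the 6 called genes with the largest difference in each comparison and for the brightest gene of each role, and further genes of other lists are named only where called, up to 4 a list. The genes and lists were chosen with earlier results of these data known. Glc24h and Glc5h samples of a number share a culture. Deviations of same-numbered samples correlated at 0.02 to 0.26 (Glc24h and Glc5h), 0.11 to 0.28 (Xyl72h and Glc5h) and 0.53 to 0.58 (Xyl72h and Glc24h), so the number was also fitted as a block. Other scalings, floors, filters, hybridisations and left-out samples were tried. Promoter and protein sequences were not analysed here. The result of 1 further gene list is not reported here. Python 3.11.15 with matplotlib 3.10.9 drew the figures.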

Additional observations from a re-analysis of the deposited data

How the results depend on the processing

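No gene called in a comparison changed direction under any alternative tried. The signs of UTH1, KRE9, FKS1, CCW12, SCW4 and YPS1 turned where no call had been made. For UTH1, Xyl72h minus Glc5h was 0.0096 with signals as deposited, 0.34 after quantile normalisation and 0.19 after scaling to reference genes. UTH1 Xyl72h minus Glc24h was -0.18, -0.39 and -0.056 with quantile, cyclic loess and reference scaling, and UTH1 Glc24h minus Glc5h was 0.52, 0.35 and 0.24. For KRE9, Glc24h minus Glc5h was 0.070, 0.043, 0.025 and 0.33 with signals as deposited, quantile, loess and reference scaling. For FKS1, Xyl72h minus Glc5h was 0.085 with quantile and 0.17 with reference scaling. CCW12 gave 0.017 for Xyl72h minus Glc5h with quantile scaling, and -0.42 for Xyl72h minus Glc24h and 0.21 for Glc24h minus Glc5h with loess. SCW4 Xyl72h minus Glc24h was -0.17 with loess. Leaving out each sample in turn gave UTH1 -0.26 to 0.16 for Xyl72h minus Glc5h, -0.077 to 0.48 for Xyl72h minus Glc24h and -0.52 to 0.034 for Glc24h minus Glc5h, FKS1 -0.32 to 0.082 and CCW12 -0.69 to 0.15 for Xyl72h minus Glc5h, CCW12 -0.20 to 0.73 and SCW4 -0.20 to 0.73 for Xyl72h minus Glc24h, and YPS1 -0.040 to 0.93 for Glc24h minus Glc5h.

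Counts of called genes moved more. For Glc24h minus Glc5h, FKS1, CHS3 and CTS1 lost their calls with signals as deposited and after quantile, cyclic loess and reference gene scaling. Some of these scalings also dropped BGL2, SIM1, ECM33 and EGT2. Reference gene scaling dropped CHS2 and DSE2 for Xyl72h minus Glc5h, and EXG1, PST1 and MID2 for Xyl72h minus Glc24h. With no filter on dim probe sets 13 genes differed over the states, 3 were lower in Xyl72h than in Glc5h cells, 1 was higher in Xyl72h than in Glc24h cells and 11 fell for Glc24h minus Glc5h; more probe sets then share the adjustment. After scaling on reference genes, which put the median of all probe sets at -0.13 for Xyl72h minus Glc24h (0.00 as scaled here) and at 0.20 for Glc24h minus Glc5h (-0.03 as scaled here), these last 3 counts were 3, 2 and 10. Cyclic loess gave 8 genes lower in Xyl72h than in Glc5h cells, and a floor of 32 gave 8 higher in Xyl72h than in Glc24h cells. Without each sample in turn, 13 to 25 genes differed over the states, 3 to 6 were lower in Xyl72h than in Glc5h cells, 1 to 5 were higher in Xyl72h than in Glc24h cells and 10 to 17 fell for Glc24h minus Glc5h. The causes of these moves were not tested. The fermentation number as a block changed no calls beyond those given with the genes, and gave 8 higher and 6 lower, 7 and 0, and 4 and 16 in Xyl72h against Glc5h, Xyl72h against Glc24h and Glc24h against Glc5h cells. Of the recomputed counts 126 stayed within 1.5 times and 21 did not, and the first hybridisation of fermentation 2 alone moved none beyond that. Signals near the floor of 16 limit what can be said of UTR2, GAS3, CHS2, EXG2, SCW11 and DSE1.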
